A study of Mus musculus with 6 samples.

Results

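The interferon-stimulated genes described here are 39 mouse genes whose products detect, block or degrade viruses and their RNA, chosen by their platform gene symbols. Of the 39 genes, 36 had a probe set that carries that symbol alone, among 18194 genes measured. The gene Isg15 had only a probe set shared with another symbol, and Oas1g and Ifi44 are not analysed here. For each gene the probe set with the highest mean log2 intensity over all 6 arrays was used, a choice that does not depend on the groups compared.

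Gene expression had been measured on 6 microarrays of bone marrow cells sorted as lineage negative, cKit+ and Sca1+, the fraction of marrow that holds blood stem cells and early multipotent progenitors. All cells came from mice 6 weeks old of genotype Hes1 GFP/WT, in which 1 allele of Hes1, a repressor acting downstream of Notch, carries a GFP reporter. The cells were divided by reporter signal into HES1-GFP positive and HES1-GFP negative, with 3 arrays each, and both groups carry the reporter allele. Each group held 1 array from a female (replicate 1) and 2 from males (replicates 2 and 3). The sources used here give neither the mouse strain nor the GFP gates, and do not say whether each of the 6 samples is a different animal. P-values therefore reflect the spread among these arrays, which may be technical.

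Interferons are secreted proteins that warn cells of viral infection. Type I interferons bind a receptor made of Ifnar1 and Ifnar2, whose kinases Jak1 and Tyk2 activate Stat2. A complex that holds Stat2 and Irf9 binds a DNA element called ISRE in the promoters of its target genes, while interferon gamma acts mainly on an element called GAS. Stem and progenitor cells are known to keep part of this antiviral programme active without infection, and interferon is known to drive quiescent stem cells into division. Sca1, one of the proteins used for the sort, is itself known to be induced by interferon, and its gene Ly6a is not analysed here.

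Promoter stretches of the genes that the results turn on are printed first, because the ISRE is the element these genes are known to share. RefSeq promoter windows (GRCm38.p6), each from 250 bases before to 50 bases after a transcription start, were given for 29 of the 39 genes. An ISRE core (GAAA, any 2 bases, GAAA), searched on both strands with overlapping matches counted separately, was found for 19 of the 29 genes, which is 65.5%, against 3.99% of the 27025 genes in the table. The GAS core (TTC, any 3 bases, GAA), also searched on both strands and allowed to overlap an ISRE core, was found for 10 of the 29, or 34.5%, against 9.55% of all genes in the table. A match describes the letters only, and the genes were listed as interferon targets to begin with. The first 4 stretches are the 150 bases before the start of members that had an unadjusted p under 0.05 in the comparison below. Capitals mark the ISRE core in Oas3 (chr5:120777660-120777809, minus strand) and Oas1a (chr5:120907526-120907675, minus strand), where 2 overlapping matches run together. In Isg20 (chr7:78913274-78913423, plus strand) they mark the GAS core, present in 1 of the 3 windows of that gene. Oasl1 (chr5:114923090-114923239, plus strand) had no match to either core in its window.
Oas3: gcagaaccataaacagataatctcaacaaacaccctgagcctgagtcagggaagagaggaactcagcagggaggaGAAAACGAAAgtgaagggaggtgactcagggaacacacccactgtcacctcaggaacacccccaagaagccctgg
Oas1a: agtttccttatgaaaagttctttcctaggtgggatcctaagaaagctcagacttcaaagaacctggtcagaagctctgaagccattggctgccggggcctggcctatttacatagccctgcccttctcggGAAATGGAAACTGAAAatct
Oasl1: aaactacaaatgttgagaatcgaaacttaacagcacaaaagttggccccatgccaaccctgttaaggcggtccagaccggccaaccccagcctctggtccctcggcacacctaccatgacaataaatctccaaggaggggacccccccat
Isg20: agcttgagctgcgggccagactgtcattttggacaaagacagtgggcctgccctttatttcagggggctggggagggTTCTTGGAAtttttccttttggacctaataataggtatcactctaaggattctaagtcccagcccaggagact

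The ISRE core of Oas3 began 75 bases before the start, and those of Oas1a began 20 and 14 bases before it. Shorter stretches from the other families show where the searched element lies in genes whose groups overlapped. They are from Ifit1 (chr19:34640765-34640833, plus strand), Ifit3 (chr19:34583353-34583436, plus strand), Gbp2 (chr3:142620584-142620633, plus strand), Irgm1 (chr11:48871421-48871470, minus strand), Stat2 (chr10:128270256-128270305, plus strand) and Rsad2 (chr12:26456543-26456592, minus strand). Capitals again mark the ISRE core, read in Ifit1, Ifit3, Gbp2, Stat2 and Rsad2 on the opposite strand.
Ifit1: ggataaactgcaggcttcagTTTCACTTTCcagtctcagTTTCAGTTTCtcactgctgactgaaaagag
Ifit3: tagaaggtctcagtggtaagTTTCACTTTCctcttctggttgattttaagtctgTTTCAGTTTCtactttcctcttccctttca
Gbp2: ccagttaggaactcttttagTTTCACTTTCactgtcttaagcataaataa
Irgm1: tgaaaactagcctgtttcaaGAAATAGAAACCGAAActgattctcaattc
Stat2: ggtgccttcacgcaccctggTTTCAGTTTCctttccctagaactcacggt
Rsad2: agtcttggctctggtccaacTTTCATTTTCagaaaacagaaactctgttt

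In Ifit1 the cores began 104 and 85 bases before the start, in Ifit3 156 and 122, in Gbp2 59, in Irgm1 30 and 24, in Stat2 222 and in Rsad2 120. The 17 measured genes with an ISRE core had a median log2 fold change (GFP-positive minus GFP-negative) of -0.29, and 13 of them were below 0. For the 9 measured genes of the promoter table without one the median was -0.33, and 7 were below 0. The medians lay close together, and this comparison is a description with no test.

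**Figure D1:**
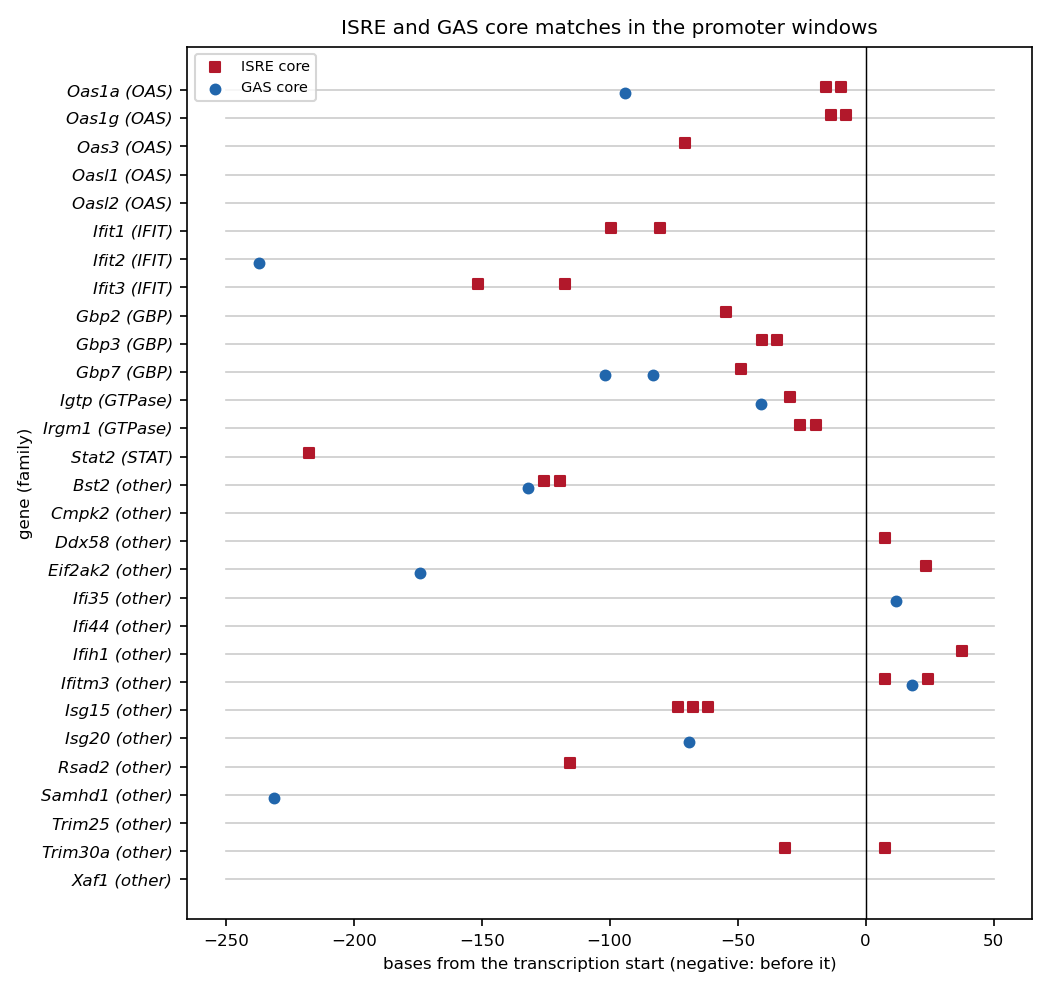
Centres of ISRE cores (red squares) and GAS cores (blue circles) in the promoter windows of 29 interferon-stimulated genes, plotted as bases from the transcription start, one line per gene. Of the 30 ISRE matches, 22 begin within 150 bases before the start, and 10 genes have none in the window.

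Markers of the sort were checked first. Log2 intensities of Cd34, a progenitor surface protein, lay between 12.28 and 12.43 in GFP-negative arrays and lower, between 11.48 and 11.86, in GFP-positive ones. Over both groups, those of Kit lay between 9.69 and 10.72, and those of the T cell gene Cd3e between 5.38 and 5.98. Levels of other genes of T cells and natural killer (NK) cells were mixed. Cd4 lay between 8.23 and 9.92, and Nkg7, a granule gene of killer cells, between 10.68 and 11.43. Cd3d lay between 5.29 and 5.77, Cd3g between 4.21 and 5.56, Cd8b1 between 4.82 and 5.24 and Cd2 between 5.36 and 5.77. Gzma, a killer cell protease, lay between 4.04 and 4.86 in GFP-negative arrays and between 7.11 and 8.07 in GFP-positive ones. The killer cell genes Prf1 and Nkg7 were at -0.14 ± 0.43 and -0.11 ± 0.22 (log2 fold change ± SE). Of the 13 T and NK cell genes measured, 8 were above 0 and 5 below. Transcripts that a given sex should lack (Xist in male arrays, Uty, Kdm5d and Eif2s3y in female arrays) lay between 3.42 and 5.59, which serves here as a guide to background. Only Mx1 and Mx2 among the 36 genes had arrays at or below 5.59. The median intensity of an array lay between 74.0 and 78.5. Markers of other cells differed between the groups and are given after the results. Hes1 itself differed by 0.54 ± 0.24 on the log2 scale (SE; adjusted p = 0.78 by limma), with overlapping values of 7.10 in GFP-negative replicate 3 and 7.09 in GFP-positive replicate 2.

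Most interferon-stimulated genes had lower mean levels in GFP-positive cells, by small amounts. Of the 36 genes, 29 had a log2 fold change below 0 (80.6%, against 48.7% of all genes), and the median was -0.30 against 0.01 for all genes. The lowest value was -1.53 and the highest 1.20. By limma over all 18194 genes, the adjusted p threshold of 0.05 was met by 0 genes in either direction (0% of genes), and so by none of the 36. Without GFP-positive replicate 3 the same fit called 5 genes higher. At an unadjusted p under 0.05, 4 of the 36 were lower (11.1%, against 3.38% of all genes) and 1 was higher (2.78%, against 3.33%). Those 4 were Oas3, Oas1a, Oasl1 and Rtp4, and the higher one was Isg20. For the same genes the 3 arrays of each group did not overlap: all GFP-positive arrays lay below all GFP-negative ones in 4 genes (5.51% of all genes) and above them in 1 (5.89% of all genes). The count of 4 lower genes depended on single arrays: it was 1 without GFP-positive replicate 1, 2 without GFP-positive replicate 3, 2 without GFP-negative replicate 2 and 8 without GFP-positive replicate 2. The higher gene was not counted without GFP-positive replicate 1, GFP-positive replicate 3 or GFP-negative replicate 3. For these fits the share of all genes was not computed, so whether all genes changed alike is not known. In sorted cells measured in bulk, fewer cells with a transcript and less of it per cell cannot be told apart.

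**Figure D2:**
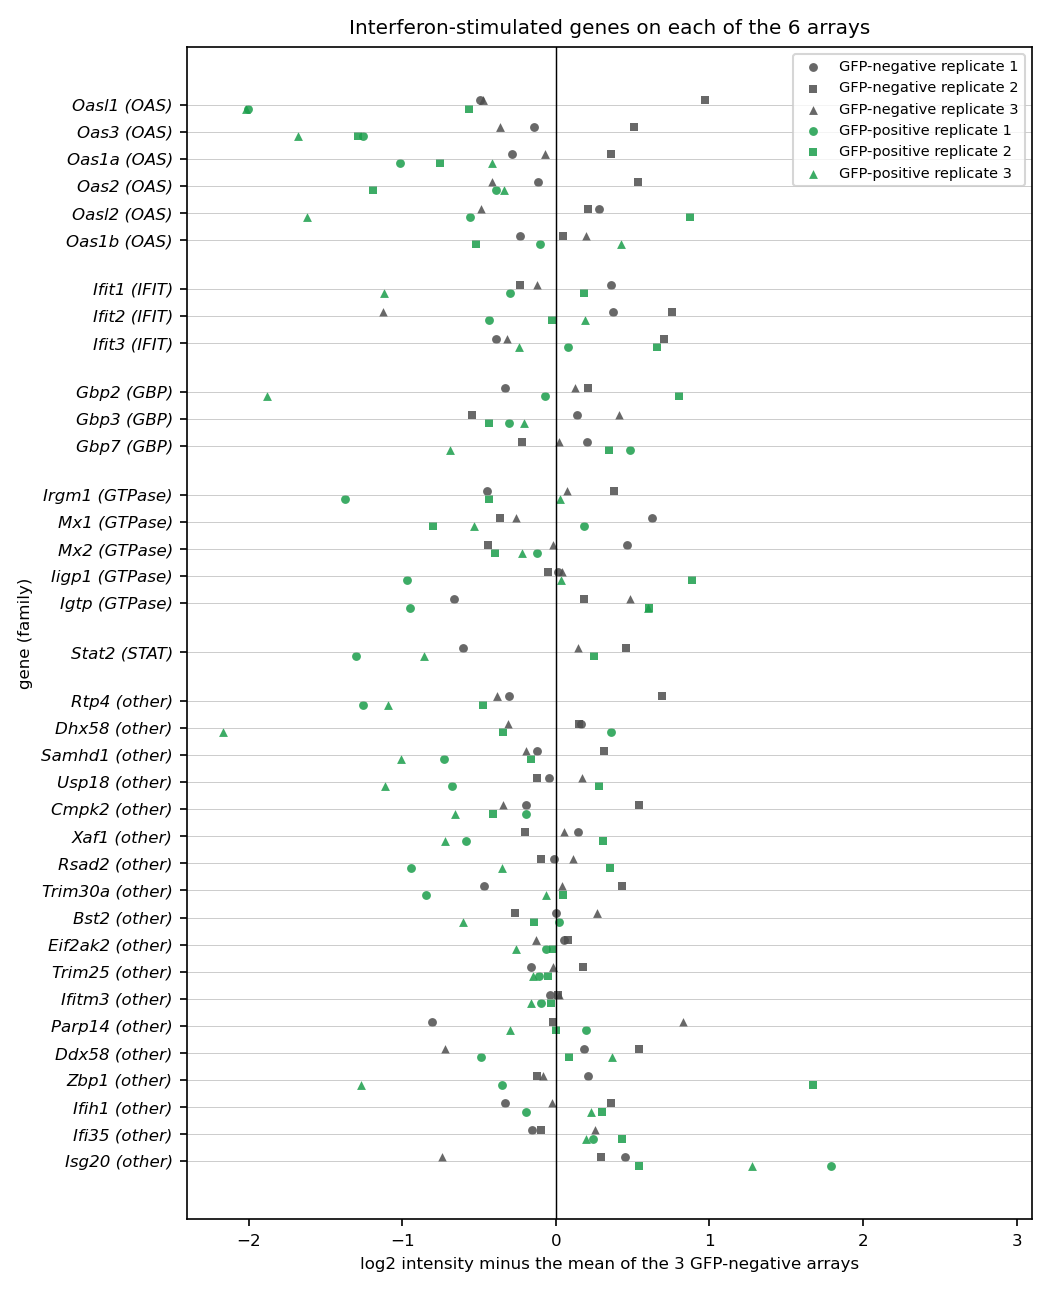
Log2 intensity of 36 interferon-stimulated genes on each array, minus the mean of the 3 GFP-negative arrays, by family; grey marks GFP-negative and green GFP-positive arrays, and circles, squares and triangles are replicates 1, 2 and 3. In Oas3, Oas1a, Oasl1 and Rtp4 all green points lie left of all grey ones, and in Isg20 all lie right of them.

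The OAS family stood lowest. These enzymes sense double-stranded RNA and make short oligoadenylates that activate RNase L, which then cuts RNA in the cell. All 6 measured OAS genes had a fold change below 0, with a median of -0.69, and 3 of them (Oas3, Oas1a and Oasl1) had an unadjusted p under 0.05. None passed the adjusted threshold.

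Array values below are log2 intensities, given for replicates 1, 2 and 3 in that order. Oas3, the largest OAS enzyme, measured 9.22, 9.87 and 9.01 across GFP-negative arrays, against 8.11, 8.08 and 7.69 across GFP-positive arrays. The groups did not overlap, and the gap between the lowest GFP-negative and the highest GFP-positive array exceeded the range within the GFP-positive group. Its log2 fold change was -1.41 ± 0.27 (SE; 95% interval -2.07 to -0.74; limma p = 0.00207, adjusted p = 0.392; exact permutation p = 0.1), a 2.65-fold lower mean intensity. The exact permutation test is two-sided, and 0.1 is the smallest p that 3 arrays against 3 can give. Under 18 alternatives its fold change lay between -1.59 and -1.16, and its unadjusted limma p stayed under 0.05 in all 18.

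Oas1a, an active synthetase, measured 10.48, 11.13 and 10.69 across GFP-negative arrays, against 9.75, 10.01 and 10.35 across GFP-positive arrays. The groups were separated by a small gap, between 10.35 and 10.48. The log2 fold change was -0.73 ± 0.25 (SE; 95% interval -1.33 to -0.13; limma p = 0.0252, adjusted p = 0.652; exact permutation p = 0.1).

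Oasl1, a synthetase-like protein without the enzyme activity that is known to restrain translation of Irf7, measured 7.42, 8.89 and 7.44 across GFP-negative arrays, against 5.91, 7.35 and 5.90 across GFP-positive arrays. Replicate 2 was the highest array of each group, and GFP-positive replicate 2 lay just under GFP-negative replicate 1. The log2 fold change was -1.53 ± 0.57 (SE; 95% interval -2.93 to -0.13; limma p = 0.0370, adjusted p = 0.701; exact permutation p = 0.1), the lowest fold change of the 36 genes.

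The other OAS genes overlapped between the groups. Oas2 had a log2 fold change of -0.64 ± 0.35 (SE). Oas1b, the gene whose intact form protects mice from flaviviruses, had one of -0.07 ± 0.28. Oasl2 measured 10.13, 10.06 and 9.37 across GFP-negative arrays, against 9.30, 10.73 and 8.24 across GFP-positive arrays. GFP-positive replicate 2 was thus the highest Oasl2 array of all and replicate 3 the lowest, and the fold change of -0.43 ± 0.64 carries no direction.

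**Figure D3:**
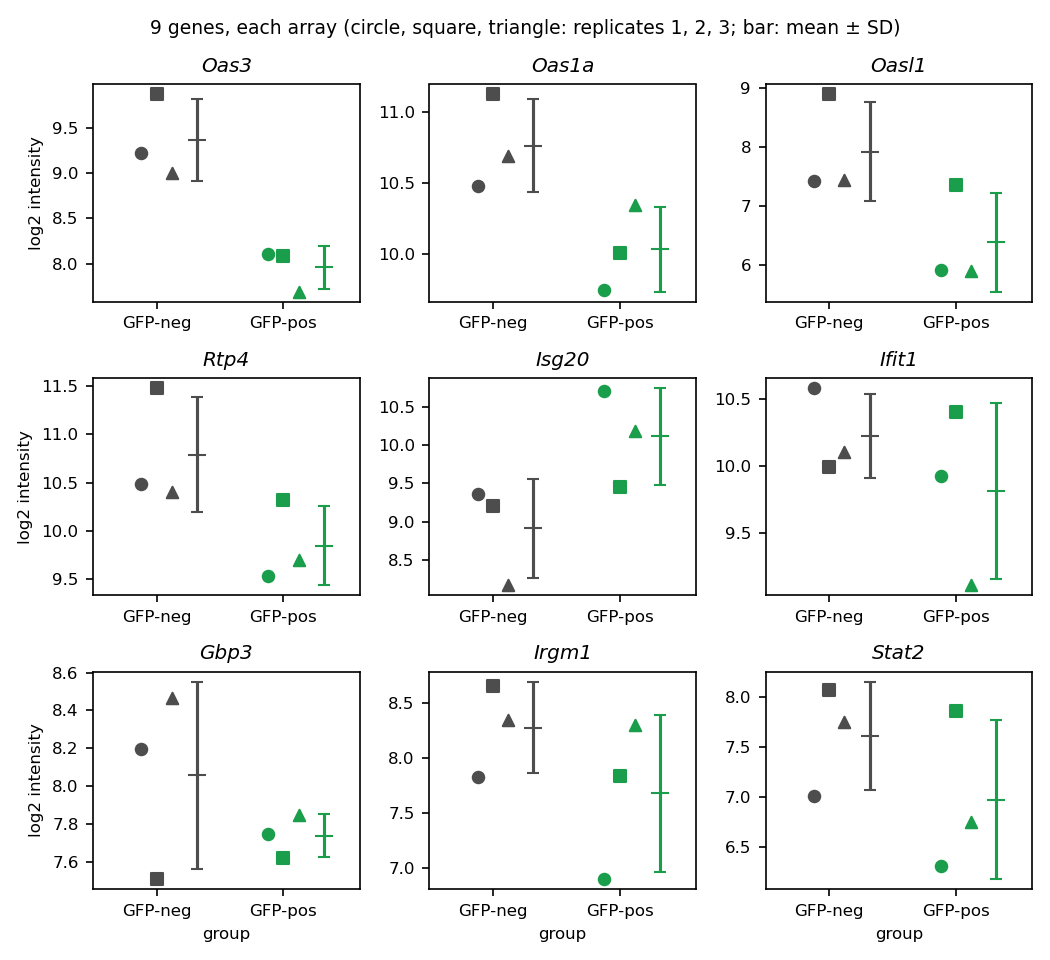
Log2 intensity on each array for Oas3, Oas1a, Oasl1, Rtp4, Isg20, Ifit1, Gbp3, Irgm1 and Stat2, with the mean ± SD (n = 3) of each group beside the points; each panel has its own axis. The groups do not overlap in the first 5 genes and overlap in the last 4.

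The IFIT proteins bind viral RNA that lacks the host's cap methylation, and their 3 measured genes showed no shared direction, with a median log2 fold change of -0.09. Ifit1 measured 10.58, 9.99 and 10.10 across GFP-negative arrays, against 9.93, 10.41 and 9.11 across GFP-positive arrays. GFP-positive replicates 1 and 3 lay below all GFP-negative arrays and replicate 2 lay among them. The fold change was -0.41 ± 0.37 (SE; 95% interval -1.31 to 0.48). Ifit2 was at -0.09 ± 0.51 and Ifit3 at 0.17 ± 0.38 (log2 fold change ± SE).

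Guanylate-binding proteins (GBP) are large GTPases that coat pathogen vacuoles and respond mainly to interferon gamma. The 3 measured genes had a median log2 fold change of -0.32, with 2 below 0. Gbp3 measured 8.20, 7.51 and 8.47 across GFP-negative arrays, against 7.75, 7.62 and 7.85 across GFP-positive arrays. GFP-negative replicate 2 was the lowest Gbp3 array of all, so the groups overlapped, and the fold change was -0.32 ± 0.27 (SE; 95% interval -0.98 to 0.35). Gbp2 ranged from 7.04 in GFP-positive replicate 3 to 9.72 in GFP-positive replicate 2, which enclosed all 3 GFP-negative arrays. The Gbp2 probe set is of a type (suffix x) in which some probes may bind other transcripts, and its second probe set gave a fold change of -0.42 against -0.38. Gbp7 was at 0.05 ± 0.34 (log2 fold change ± SE).

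Among the other GTPases, the immunity-related Irgm1, Igtp and Iigp1 act on pathogen vacuoles, and Irgm1 is known to keep stem cells from losing function under interferon. Irgm1 measured 7.83, 8.65 and 8.35 across GFP-negative arrays, against 6.90, 7.84 and 8.30 across GFP-positive arrays. The GFP-positive arrays spanned more than the difference between the groups, which was -0.60 ± 0.41 (log2 fold change ± SE; 95% interval -1.60 to 0.41). Igtp was at 0.09 ± 0.52 and Iigp1 at -0.02 ± 0.46 (log2 fold change ± SE). Iigp1 varied little among GFP-negative arrays (8.95, 8.88 and 8.98) and more among GFP-positive ones (7.96, 9.82 and 8.97). Mx1 and Mx2, dynamin-like proteins that block viral replication and of which Mx1 is disrupted in many inbred mouse strains, were near background. Mx1 lay between 4.79 and 6.22 and Mx2 between 4.10 and 5.00 over the 6 arrays, where RMA compresses differences, and their fold changes were -0.38 ± 0.37 and -0.25 ± 0.26 (SE).

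Stat2, a signal transducer of the type I response, measured 7.01, 8.07 and 7.76 across GFP-negative arrays, against 6.31, 7.86 and 6.75 across GFP-positive arrays. GFP-positive replicate 2 lay within the GFP-negative range, and both others lay below it. The fold change was -0.64 ± 0.47 (SE; 95% interval -1.80 to 0.52), and the second Stat2 probe set gave -0.08.

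The remaining 18 genes had a median log2 fold change of -0.18, with 14 below 0. Rtp4, a chaperone of membrane receptors that also acts against viruses, measured 10.48, 11.48 and 10.40 across GFP-negative arrays, against 9.53, 10.31 and 9.69 across GFP-positive arrays. The groups came close to each other, at 10.31 and 10.40. Its fold change was -0.94 ± 0.37 (SE; 95% interval -1.84 to -0.04; limma p = 0.0424, adjusted p = 0.729; exact permutation p = 0.1), and its other probe set gave -0.19. Samhd1, which hydrolyses the nucleotides that viruses need for DNA synthesis, was at -0.63 ± 0.27 (log2 fold change ± SE; 95% interval -1.31 to 0.04), and GFP-positive replicate 2 overlapped the GFP-negative arrays.

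Isg20, an exonuclease that degrades viral RNA, went the other way from most of the list. It measured 9.36, 9.21 and 8.17 across GFP-negative arrays, against 10.70, 9.45 and 10.19 across GFP-positive arrays. All GFP-positive arrays lay above all GFP-negative ones, with GFP-positive replicate 2 and GFP-negative replicate 1 close together. The log2 fold change was 1.20 ± 0.45 (SE, 95% interval 0.11 to 2.29, limma p = 0.0357, adjusted p = 0.697, exact permutation p = 0.1). On the probe sets used, no other gene of the list had a fold change above 0.29. Other probe sets of Rsad2, Iigp1 and Gbp7 gave 0.57 ± 0.38, 0.54 ± 0.36 and 0.43 ± 0.47 (SE), while 49 of all 62 probe sets were below 0.

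On the probe sets used, the sensors of viral RNA showed no common direction. Ifih1 (Mda5) was at 0.11 ± 0.24 and Ddx58 (RIG-I) at -0.01 ± 0.39 (log2 fold change ± SE). Dhx58 (Lgp2), which tunes both, was at -0.72 ± 0.64, and its GFP-positive arrays ran from 9.94 in replicate 1 to 7.41 in replicate 3. All 3 Dhx58 probe sets had a fold change below 0, from -1.06 to -0.67, and in the lowest of them the groups did not overlap. The 3 Ddx58 probe sets were also below 0, from -0.89 to -0.0026. Zbp1, a sensor of left-handed nucleic acid that triggers cell death, was at 10.23 in GFP-positive replicate 2 and 7.29 in GFP-positive replicate 3, around GFP-negative values of 8.76, 8.43 and 8.47.

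For 4 effectors at the cell surface and in the cytoplasm, chosen after their values were seen, the intervals were narrow. Ifitm3, which stops viruses at the endosome and is known to be expressed in stem cells without interferon, lay between 13.25 and 13.43 on the 6 arrays, with a fold change of -0.10 ± 0.13 (SE; 95% interval -0.43 to 0.23). Trim25, a ubiquitin ligase that activates RIG-I, was at -0.10 ± 0.15. Eif2ak2 (PKR), which halts translation on double-stranded RNA, was at -0.11 ± 0.15, and Bst2 (tetherin), which holds budding virus on the cell, at -0.24 ± 0.24. For the probe sets used for these 4 genes, the interval of the log2 fold change lay between -0.82 and 0.33. A 2-fold difference in either direction is outside it. Another Eif2ak2 probe set gave -0.81 ± 0.47 (log2 fold change ± SE), and the limit does not cover that probe set. Ifi35 was at 0.29 ± 0.18, Parp14 at -0.03 ± 0.42 and Trim30a at -0.29 ± 0.34. The other genes in this group, Usp18, Rsad2, Xaf1 and Cmpk2, had fold changes between -0.50 and -0.31 and intervals that included 0.

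**Figure D4:**
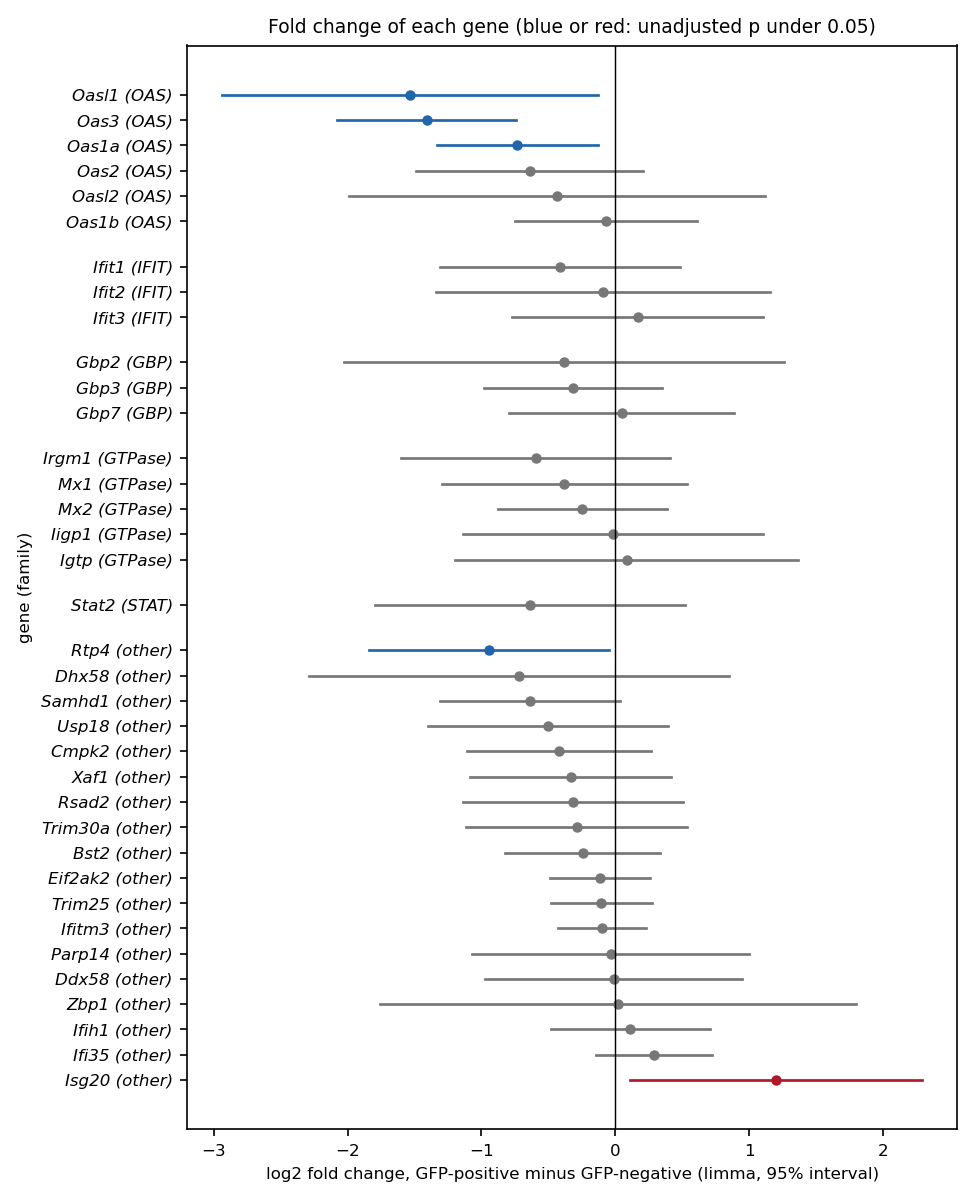
Log2 fold change (GFP-positive minus GFP-negative) of 36 interferon-stimulated genes with the 95% interval from limma (n = 3 arrays per group), by family; blue and red mark an unadjusted p under 0.05. The intervals of Oasl1, Oas3, Oas1a and Rtp4 lie below 0, that of Isg20 lies above 0, and the 31 others include 0.

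Several probe sets existed for 17 of the 36 genes. In 11 of these all probe sets had a fold change below 0, in 2 all were above 0, and in 4 (Ifi35, Iigp1, Rsad2 and Samhd1) the signs were mixed. Rsad2 (viperin), which makes a chain-terminating nucleotide, disagreed most, from -0.96 to 0.57. Over all 62 probe sets of these genes 49 were below 0.

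The 3 GFP-positive arrays did not share 1 level. Relative to the GFP-negative mean, the median deviation of the 36 genes was -0.33 and -0.35 in GFP-positive replicates 1 and 3 and -0.01 in replicate 2. Of the 36 genes 28, 18 and 27 lay below the GFP-negative mean in GFP-positive replicates 1, 2 and 3. GFP-positive replicate 3 was the lowest of all 6 arrays for 15 genes, and GFP-negative replicate 2 the highest for 16. Over all genes, replicate 3 of the GFP-positive cells was lowest for 2932 of 18194 and replicate 2 of the GFP-negative cells highest for 2729. Families did not all follow that pattern: the OAS genes had medians of -0.79, -0.66 and -1.02 in GFP-positive replicates 1, 2 and 3, and the GTPases -0.95, -0.40 and 0.03. Within the OAS family Oasl2 was highest in replicate 2. Without GFP-positive replicate 2 the median fold change of the 36 genes was -0.40, without replicate 1 it was -0.21 and without replicate 3 it was -0.19. Among the 4 male arrays it was -0.24, and within the female pair the median difference was -0.44.

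**Figure D5:**
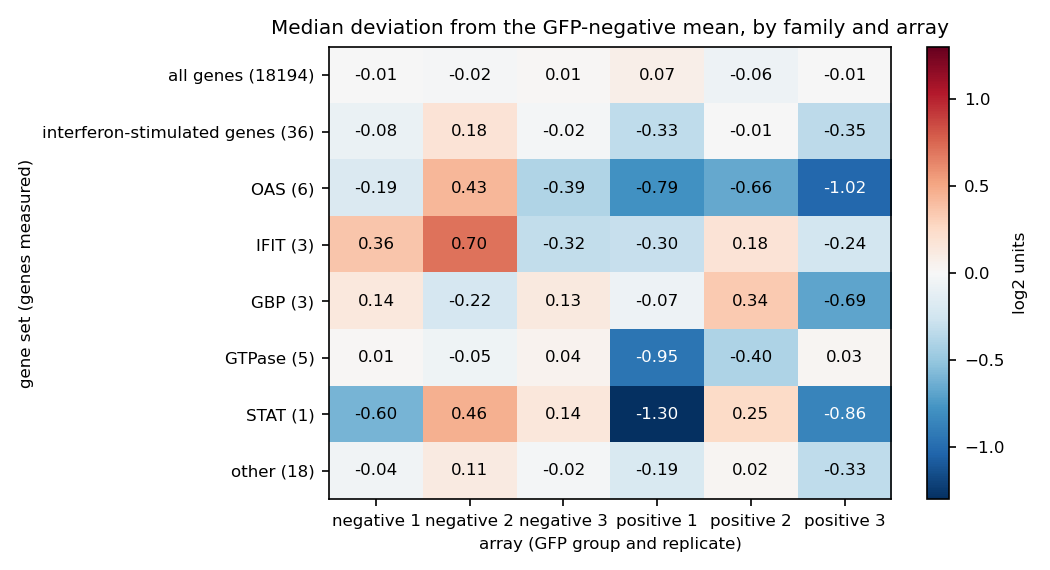
Median deviation of each family from the GFP-negative mean on each array, in log2 units, with all genes and all 36 interferon-stimulated genes in the top rows. The OAS row is below -0.6 in all 3 GFP-positive arrays, while the other families differ between those arrays.

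The genes around these targets in the pathway, a few of which are among the 36, showed no call either. In each of the 7 lists below, 0 genes passed the adjusted threshold in either direction. Over all genes, 3.38% were lower and 3.33% higher at an unadjusted p under 0.05, and 48.7% were below 0. Interferons themselves were represented by 10 of 18 listed genes, with a median log2 fold change of 0.12 and 0 genes at an unadjusted p under 0.05. Ifnb1 lay between 4.22 and 4.66 and Ifng between 3.61 and 4.10, within the guide to background. Other ligand probe sets lay above it on all arrays: Ifna1 between 6.83 and 7.72, Ifnz between 6.18 and 7.96 and Ifna5 between 5.90 and 6.41. Those of Ifna1 and Ifna5 have the suffix x, so some of their probes may bind other transcripts. Ifna2, between 3.12 and 3.57, and Ifna4, between 3.70 and 4.33, lay no higher than the guide. Receptors and their kinases (9 of 9 genes) had a median of -0.06 and 0 genes at an unadjusted p under 0.05. Ifnar1 was at -0.10 ± 0.34, Ifnar2 at -0.50 ± 0.29, Jak1 at 0.07 ± 0.28 and Tyk2 at 0.32 ± 0.75 (log2 fold change ± SE).

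Of the transcription factors that interferon activates, 4 of 5 were measured and all were below 0 (Stat2, given above, is one of them), with Irf1 alone at an unadjusted p under 0.05. Irf1, the main factor of the gamma response, measured 10.15, 10.19 and 10.66 across GFP-negative arrays, against 9.16, 9.61 and 9.66 across GFP-positive arrays. The groups did not overlap, and the difference was -0.86 ± 0.23 on the log2 scale (SE; adjusted p = 0.528 by limma). Irf9 was at -0.43 ± 0.37 and Irf7 at -0.12 ± 0.39.

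Brakes on the signal (13 of 14 genes measured; Usp18, given above, is one of them) had a median of -0.38, with 10 below 0 and 0 at an unadjusted p under 0.05. Ptpn6, a phosphatase that dampens cytokine receptors, was at -0.38 ± 0.17, and Adar, which edits double-stranded RNA so that it is not sensed, at -0.57 ± 0.25. Of the genes that sense nucleic acids upstream of interferon, 14 of 17 were measured, with a median of -0.15 and 2 lower at an unadjusted p under 0.05. These were the Toll-like receptor adaptors Ticam1 at -1.34 ± 0.51 and Myd88 at -1.08 ± 0.42 (log2 fold change ± SE; limma adjusted p = 0.715 and 0.737). The sensing list also holds Ddx58, Ifih1, Dhx58 and Irf7, all given above.

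A further list of interferon-stimulated genes outside the 39, with 35 of 44 measured, did not lean one way as far. Its median was -0.09, and 22 of 35 were below 0 (62.9%, against 48.7% of all genes). At an unadjusted p under 0.05, 4 were lower and 3 higher, where 3.38% and 3.33% of all genes were. The 4 lower were Ifi27l2a at -0.80 ± 0.18, Dtx3l at -0.95 ± 0.26, Sp100 at -0.65 ± 0.20 and Parp12 at -0.48 ± 0.19 (log2 fold change ± SE). The 3 higher were Ifi30, a lysosomal thiol reductase, at 1.09 ± 0.27, the chemokine Ccl5 at 1.55 ± 0.44 and Slfn2 at 1.19 ± 0.34. MHC class I presentation genes, 12 of 16 measured, had a median of -0.05, and B2m lay between 13.74 and 13.87 on all 6 arrays.

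Other cell type and state markers differed between the same groups, and their part in the values above was not tested. Summed intensities of 11 of 12 listed B cell genes lay between 1321 and 2734 in GFP-negative and between 3216 and 11569 in GFP-positive arrays. For 10 of 12 erythroid genes the ranges were 8726 to 9742 and 13014 to 17394, and for 18 of 19 monocyte and macrophage genes 9660 to 10966 and 11436 to 15199. Of these 18 monocyte and macrophage genes, 5 had a log2 fold change below 0 and 13 above, with Csf1r lowest at -2.20 ± 0.40 (SE). Cell cycle genes (17 of 18) summed to between 23009 and 35316 and between 40049 and 44586. In the other direction, 12 of 12 plasmacytoid dendritic cell genes summed to between 15226 and 16951 in GFP-negative and between 12281 and 13306 in GFP-positive arrays. Of these 12 plasmacytoid dendritic cell genes, 8 had a log2 fold change below 0 and 4 above, with Ly6d highest at 2.35 ± 0.45 (SE). Siglech, which defines that cell type, lay between 6.41 and 7.01 over both groups. A sum weighs bright genes most, and the brightest of these 12 were Dntt, Bcl11a and Tcf4. Their log2 fold changes were -0.48 ± 0.16, -0.24 ± 0.23 and -0.17 ± 0.17 (SE). Car2, the brightest of the erythroid genes, was at 0.05 ± 0.17, and 9 of those 10 genes were above 0. Genes of the sort gate and of progenitors (8 of 10) summed to between 21010 and 22223 and between 14201 and 17056. Endothelial and stromal genes (17 of 17) summed to between 4370 and 5016 in GFP-negative arrays, and to 25237, 5749 and 3470 in GFP-positive replicates 1, 2 and 3. Without GFP-positive replicate 1 the log2 fold changes were -1.48 for Oas3, -0.59 for Oas1a, -1.29 for Oasl1, -0.78 for Rtp4 and 0.91 for Isg20, and of these only Oas3 kept an unadjusted limma p under 0.05. For 13 of 15 T and NK cell genes the ranges overlapped, at 3947 to 5028 and 3527 to 5054. Immediate early genes, which respond within minutes to handling and other stimuli, summed to 57570, 30124 and 14560 in GFP-negative replicates 1, 2 and 3 and to 45375, 22052 and 11679 in the GFP-positive replicates of the same numbers. Of these 14 genes 12 had a log2 fold change below 0, with a median of -0.31.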

How the data were processed

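The deposited values are linear-scale intensities of 45101 probe sets, 1 for each of 6 arrays. RMA, which corrects background, quantile-normalises and summarises probes, is named in the submitters' processing notes without settings. It compresses differences near background. RNA was amplified from 5 ng before labelling, per the labels' protocols. Here log2 was taken with no pseudocount. Symbols came from the platform annotation: 34958 probe sets carried 1 symbol, and 932 with several and 9211 with none were left out. The probe set with the highest mean log2 represented a gene, without a filter on dim genes (18194 genes). Groups were compared with limma 3.58.1 (lmFit, eBayes) in R 4.3.3, without covariates, with Benjamini-Hochberg adjustment over all genes and a threshold of 0.05. The fit was tested on simulated data with 200 changed genes per run. It called 19.2% of changes of 1 log2 unit, 59.6% of 2 and 85.1% of 4, with 7.2 false calls per run. Changes under 1 log2 unit were not simulated. The number of arrays limits the precision. Alternatives varied probe sets, filters, scale, variance prior, array weights, normalisation, replicate block, sex and samples. Genes given in full had an unadjusted p under 0.05, groups that did not overlap, the smallest p of their family or the most extreme fold change; in pathway lists up to 4 genes of smallest p were to be named. The genes Ifnb1, Ifng, Ifnz, Jak1, Tyk2, Ifnar1 and B2m were chosen outside that rule after their values were seen. So were Siglech, Csf1r, Ly6d, Dntt, Bcl11a, Tcf4, Car2, Cd34, Kit, Cd3e, Cd3d, Cd3g, Cd8b1, Cd2, Cd4, Nkg7, Gzma and Prf1, and array values of Oasl2, Gbp2, Iigp1, Dhx58 and Zbp1. The members and lists were chosen with earlier results of these data known. Sequences are RefSeq's (GRCm38.p6).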

Additional observations from a re-analysis of the deposited data

Results flagged for a closer look

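In 4 of the 36 genes (11.1%, against 18.3% of all genes) the female pair of arrays differed in one direction and every male GFP-positive array differed from every male GFP-negative array in the other. With 1 female array per group this difference between the sexes was not tested. Igtp was at -0.28 (log2, GFP-positive minus GFP-negative) in the female pair and at 0.27 in the males. Dhx58 was at 0.19 and -1.17, Trim25 at 0.0498 and -0.18, and Cmpk2 at 0.00276 and -0.63. The female difference of Cmpk2 is close to 0.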

How the results depend on the processing

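The median log2 fold change of the 36 genes stayed below 0 under all 19 alternatives, between -0.40 and -0.18, and 0 genes were called lower by limma in any of them. The 9 genes given in full kept their sign in every alternative they could be fitted in, and Oas3 had an unadjusted p under 0.05 in 18 of 18. Genes called higher numbered 1 and 2 with genes below the 40th and 60th percentile left out, where fewer genes are tested, and 0 to 5 when 1 array was left out. Members lower at an unadjusted p under 0.05 numbered 1 among males alone and 1 to 8 when 1 array was left out, and members higher 0 among males alone and 0 to 1. With every probe set as its own feature, 49 of 62 were below 0. Correlations of deviations between same-numbered arrays of the 2 groups were 0.12, 0.05 and 0.09 for numbers 1, 2 and 3; each array correlated best with its own number, but the labels state no pairing. With the replicate number as a block the median was -0.30, 6 members were lower (Stat2 and Oasl1 among them) and 1 higher at an unadjusted p under 0.05, and 0 genes were called; the adjusted p by limma was 0.368 for Oasl1 and 0.647 for Stat2. For the counts of members at an unadjusted p under 0.05 in the alternatives, the share of all genes was not computed. The median 95% interval of a member reached 0.87 log2 units to either side.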

Other observations

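Some genes of the pathway differed between single arrays rather than groups. Tlr3, a receptor for double-stranded RNA, was at 8.53 in GFP-positive replicate 1 and between 3.73 and 5.24 on the 5 other arrays, and Tlr7 was at 9.41 there and between 5.99 and 8.26 elsewhere. Tyk2 was at 9.46 in GFP-positive replicate 1 and 8.23 in GFP-negative replicate 1, both from females, against 6.83 to 7.28 in male arrays. Cxcl9, a chemokine induced by interferon gamma, was at 6.94 in GFP-negative replicate 2 and between 4.08 and 4.91 elsewhere. These genes were chosen after their values were seen.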
